A study of Caenorhabditis elegans with 51 samples.

Results

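The 10 genes described here encode histone methyltransferases, their partners and heterochromatin proteins of the nematode Caenorhabditis elegans. They are mes-2, mes-3, mes-6, mes-4, met-1, met-2, set-25, set-32, hpl-1 and hpl-2, and they were chosen by name from a table of 20202 genes. What was measured is small RNA assigned to each gene, not the gene's own mRNA. The labels give 2 libraries of small RNA recovered with HRDE-1, 2 recovered with CSR-1, and 2 of the input to these recoveries. The labels call them HRDE-1 sRIP, CSR-1 sRIP and sRIP input, without spelling out sRIP. All 6 came from young adults of 1 strain, CSS342, so the 3 groups share a genotype. It combines Cer3(red20), an allele of the LTR retrotransposon Cer3 with a fragment of oma-1 inserted, with tagged forms of both Argonautes, written c-myc-CSR-1 and SF-HRDE-1. The study asks how worms tell self from non-self siRNAs. The other 45 of 51 samples of the series were not used here. No mock or untagged recovery was analysed here, so small RNA bound by an Argonaute and small RNA carried over with it cannot be told apart. The samples are whole animals, in which fewer cells of a type and less RNA per cell cannot be told apart either.

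MES-2, MES-3 and MES-6 form the worm's Polycomb repressive complex, which methylates histone H3 at lysine 27 in the germline. MES-4 and MET-1 methylate lysine 36 of the same histone. MES-4 keeps that mark on germline-expressed genes from one generation to the next. MET-2 and SET-25 methylate lysine 9, the mark of heterochromatin, and SET-32 takes part in heritable nuclear RNAi. HPL-1 and HPL-2 are the worm's heterochromatin protein 1 family members, which bind methylated lysine 9. HRDE-1 is the Argonaute that carries heritable silencing into germline nuclei, whereas CSR-1 is an Argonaute known for siRNAs against germline-expressed genes. The Argonautes and the chromatin proteins meet in the germline, since silencing through HRDE-1 is accompanied by methylated histones at its targets. Here the chromatin genes are looked at from the other side, as genes that small RNAs match.

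Levels are in RPKM, the authors' read count scaled by the length of the gene model and the size of the library. The totals behind them, deduced from the values, were 4872549 and 3248065 reads for HRDE-1, 4992358 and 2991634 for CSR-1, and 2728020 and 2104162 for the input. The reads of the 2 input libraries agreed within sampling noise over 9272 genes (chi-square divided by its degrees of freedom 0.983, p = 0.877). This pair was therefore counted as 1 sample, given as a mean with no SD, and assumed to vary like the other groups. The HRDE-1 pair differed by more, at 1.91, and the CSR-1 pair slightly more, at 1.06. Of 20202 genes, 10908 had at least 1 RPKM in 2 libraries and were tested in 1 limma fit on log2(RPKM + 1). All 10 chromatin genes were among them, each above that level in every library. Below, "rose" and "fell" mean an adjusted p under 0.05 in that fit, and "called" means this together with a log2 fold change of at least 1 in size. Log2 fold changes are on the RPKM + 1 scale, and folds without that word are ratios of mean RPKM. The labels do not say that replicates were separate cultures, so p-values reflect the spread between libraries alone, which may be technical. The 2 comparisons with input share the input libraries.

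The main split among the 10 genes lay between hpl-1 and the 8 MES, MET and SET genes. Small RNA against hpl-1 was 2.07-fold the input level with HRDE-1 and 4.96-fold below it with CSR-1, so its mean was 10.3-fold higher with HRDE-1 than with CSR-1. Small RNA against each of the 8 methyltransferase and MES genes lay lower with HRDE-1 than with CSR-1, by 1.90-fold (met-2) to 3.55-fold (met-1). Of all tested genes, 39.5% had both HRDE-1 libraries below both CSR-1 libraries. Between them stood hpl-2, which was 1.46-fold higher with HRDE-1 than with CSR-1. That placed hpl-2 near the middle of all tested genes, at percentile 49.0 of this log2 fold change.

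**Figure D1:**
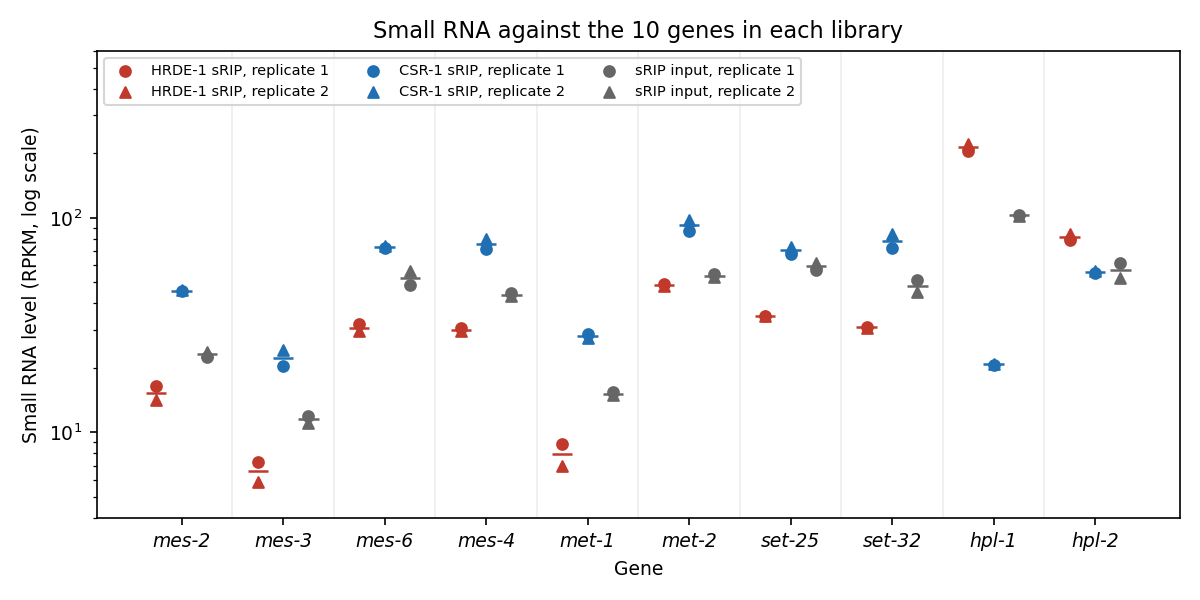
Small RNA level (RPKM, logarithmic axis) of the 10 genes in the HRDE-1, CSR-1 and input libraries. Circles are replicate 1, triangles replicate 2 and dashes the group means. The HRDE-1 libraries lie below the CSR-1 libraries for the 8 MES, MET and SET genes and above them for hpl-1 and hpl-2.

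The 3 subunit genes of the MES complex shared 1 direction in each precipitate. For mes-2, which encodes the catalytic subunit, the HRDE-1 libraries held 16.4 and 14.2 RPKM, the CSR-1 libraries 45.7 and 45.9 RPKM, and the input libraries 22.5 and 23.8 RPKM. The mes-6 gene, for a WD-repeat subunit, had 31.9 and 29.6 RPKM with HRDE-1, 72.5 and 73.6 RPKM with CSR-1, and 48.8 and 56.5 RPKM in the input. For mes-3, whose product is a subunit found in nematodes, the values were 7.27 and 5.90 RPKM with HRDE-1, 20.4 and 24.1 RPKM with CSR-1, and 11.9 and 11.1 RPKM in the input. In all 3 genes the CSR-1 libraries were the highest and the HRDE-1 libraries the lowest, and no groups overlapped. Of all tested genes, 41.7% had both HRDE-1 libraries below both input libraries, and 33.2% had both CSR-1 libraries above them. Both HRDE-1 libraries lay below both CSR-1 libraries for 39.5%. Against input, HRDE-1 small RNA fell for mes-2 (log2 fold change −0.57 ± 0.13 SE, adjusted p = 0.0250), mes-3 (−0.73 ± 0.20, 0.0392) and mes-6 (−0.76 ± 0.11, 0.0101). CSR-1 small RNA rose for mes-2 (0.95 ± 0.13, adjusted p = 0.00332), mes-3 (0.89 ± 0.20, 0.0143) and mes-6 (0.47 ± 0.11, 0.0151). The mes-3 value with the fewest reads was that of HRDE-1 replicate 2, at 59 reads, whose exact Poisson interval of 95% spans 4.49 to 7.61 RPKM for counting error only.

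The lysine 36 methyltransferase genes mes-4 and met-1 followed the same order. HRDE-1 libraries held 30.5 and 29.8 RPKM of mes-4 small RNA, CSR-1 libraries 71.8 and 79.8 RPKM, and input libraries 44.7 and 43.0 RPKM. For met-1 the values were 8.87 and 7.01 RPKM with HRDE-1, 28.9 and 27.5 RPKM with CSR-1, and 15.4 and 14.9 RPKM in the input. Neither gene had overlapping groups, for which the shares of all tested genes are those given for the MES complex. With HRDE-1 both fell against input, mes-4 at a log2 fold change of −0.53 ± 0.11 SE (adjusted p = 0.0224) and met-1 at −0.86 ± 0.18 (0.0202). With CSR-1 both rose, mes-4 at 0.77 ± 0.11 (adjusted p = 0.00417) and met-1 at 0.86 ± 0.18 (0.0113). MET-1 and MES-4 lay on the same side although they differ in level: mes-4 averaged 30.1 ± 0.534 RPKM with HRDE-1 and met-1 7.94 ± 1.32 RPKM (SD, n = 2).

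The genes for SET-25, SET-32 and MET-2 differed in how far they moved. For met-2, the HRDE-1 libraries held 49.2 and 47.9 RPKM, the CSR-1 libraries 86.5 and 98.0 RPKM, and the input libraries 54.8 and 52.8 RPKM. Both HRDE-1 libraries of met-2 lay below both input libraries, yet the difference missed the threshold (log2 fold change −0.14 ± 0.12 SE, adjusted p = 0.372). With CSR-1, met-2 rose (0.76 ± 0.12, adjusted p = 0.00525). For set-25 the values were 34.9 and 34.9 RPKM with HRDE-1, 68.1 and 72.9 RPKM with CSR-1, and 57.3 and 61.5 RPKM in the input. It fell with HRDE-1 (−0.75 ± 0.10, adjusted p = 0.0101), whereas its CSR-1 difference missed the threshold (0.24 ± 0.10, adjusted p = 0.0926). SET-32's gene had 31.0 and 30.7 RPKM with HRDE-1, 72.0 and 84.4 RPKM with CSR-1, and 51.2 and 45.04 RPKM in the input. It fell with HRDE-1 (−0.63 ± 0.13, adjusted p = 0.0212) and rose with CSR-1 (0.68 ± 0.13, adjusted p = 0.00907). In both precipitates neither met-2 nor set-25 overlapped the input. Of all tested genes, 41.7% lay below it in this way with HRDE-1 and 33.2% above it with CSR-1. The difference between met-2 and set-25 in passing the threshold was not tested.

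The heterochromatin protein gene hpl-1 took the opposite course. The HRDE-1 libraries held 204.7 and 221.3 RPKM of hpl-1 small RNA, the CSR-1 libraries 20.7 and 20.8 RPKM, and the input libraries 103.5 and 102.3 RPKM. These groups lay far apart, with the HRDE-1 libraries the highest of any of the 10 genes and the CSR-1 libraries among the lowest. Against input it rose with HRDE-1 (log2 fold change 1.04 ± 0.11 SE, adjusted p = 0.00937) and fell with CSR-1 (−2.26 ± 0.11, adjusted p = 0.000311). Both differences were called, as they were in these same directions for 434 of all tested genes (3.98%). In CSR-1 replicate 2 the gene had 50 reads, the fewest of any value of the 10 genes, with an interval of 15.4 to 27.4 RPKM. Its HRDE-1 call was lost with any 1 HRDE-1 or CSR-1 library left out: the adjusted p was then 0.0622 and 0.0699 without HRDE-1 replicate 1 and 2, and 0.05013 and 0.05001 without CSR-1 replicate 1 and 2. With the input libraries taken as 2 samples the adjusted p was 0.000201, and the call was lost only without HRDE-1 replicate 2, where the log2 fold change of 0.99 missed the size limit.

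The paralog hpl-2, also a heterochromatin protein gene and a synthetic multivulva regulator, moved less. It had 79.1 and 84.2 RPKM with HRDE-1, 55.3 and 56.3 RPKM with CSR-1, and 61.7 and 52.7 RPKM in the input. The HRDE-1 libraries stood above all the others, while the CSR-1 libraries fell within the input range. Both HRDE-1 libraries stood above both input libraries for 37.8% of all tested genes, and above both CSR-1 libraries for 53.7%. Small RNA against hpl-2 rose with HRDE-1 (log2 fold change 0.51 ± 0.11 SE, adjusted p = 0.0209) and was 0.976-fold the input with CSR-1 (−0.03 ± 0.11, adjusted p = 0.787). The 2 paralogs thus exchanged their order: the RPKM of hpl-1 was 2.59 and 2.63 times that of hpl-2 with HRDE-1, 0.374 and 0.369 times with CSR-1, and 1.68 and 1.94 times in the input.

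**Figure D2:**
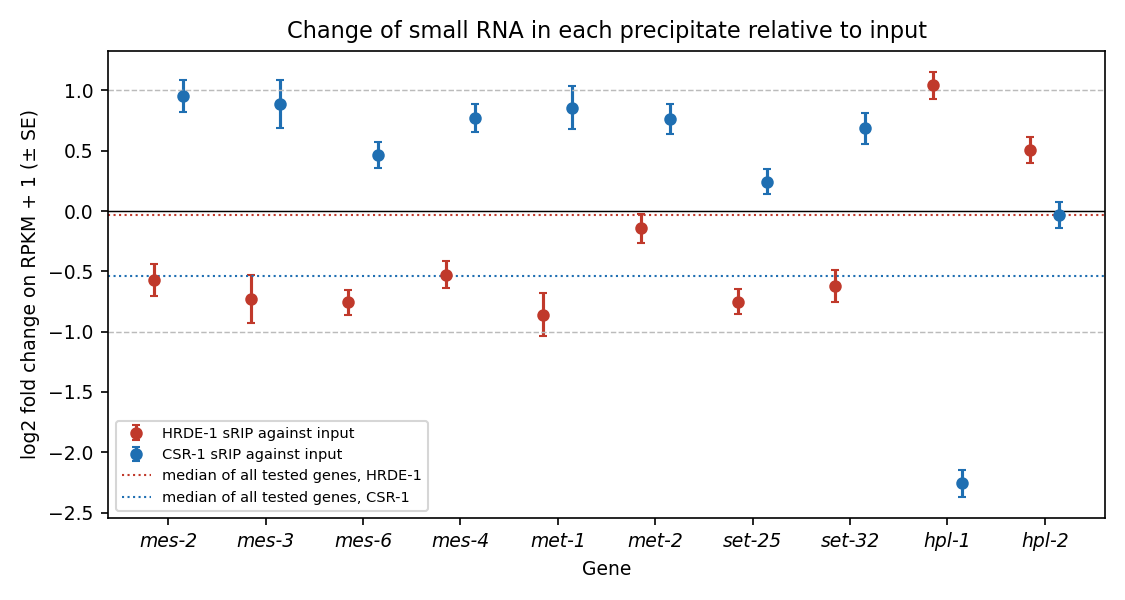
Log2 fold change on RPKM + 1 against input for each gene, HRDE-1 (red) and CSR-1 (blue), with bars of ± SE from limma. The dotted lines are the medians of all tested genes, −0.03 for HRDE-1 and −0.54 for CSR-1, and the dashed lines mark the size limit of 1. The hpl-1 points, at 1.04 and −2.26, lie outside the dashed lines.

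Against input, the HRDE-1 precipitate held 1 of the 10 genes called higher, hpl-1, and 0 called lower by limma, while 9 of the 10 had an unadjusted p under 0.05. Of all tested genes 7.15% were called higher and 10.3% lower. Both HRDE-1 libraries stood above both input libraries for 2 of the 10 and below them for 8, as they did for 37.8% and 41.7% of all tested genes. At any fold, a rule added after the data were seen, 2 of the 10 rose and 7 fell, beside 15.9% and 28.1% of all tested genes. Since 8 of the 10 lay above the input median of the tested genes, 15.7 RPKM, a second background, also added later, was the 6501 genes with an input mean of at least 10 RPKM, among which 15.2% rose and 41.5% fell, and 4.43% were called higher and 13.7% lower. The median of the 10 log2 fold changes was −0.60, against −0.03 over all tested genes and −0.36 over those 6501. Within replicates 1 and 2 the median was −0.57 and −0.62. The 7 falls were small, between 1.46-fold and 1.90-fold in mean RPKM, and rested on the scale: with library medians set equal, only mes-6 and met-1 of the 7 still fell, beside 16.3% of all tested genes, and met-2 changed sign to 0.24. They also rested on the estimate of spread. The rises and falls of the 10 were lost with any 1 HRDE-1 or CSR-1 library left out. So were most of those over all tested genes. In each such fit with 2 input samples the rises and falls of the 10 were kept. Across these fits the median log2 fold change of the 10 was between −0.65 and −0.55.

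In the CSR-1 precipitate 0 of the 10 genes were called higher and 1, hpl-1, was called lower by limma (8 of the 10 had an unadjusted p under 0.05), against 7.13% and 36.8% of all tested genes, and 7.8% and 34.2% of the 6501 with more input small RNA. Both CSR-1 libraries stood above both input libraries for 8 of the 10 and below them for 1, as they did for 33.2% and 53.9% of all tested genes. At any fold 7 rose and 1 fell, against 23.7% and 45.4% of all tested genes and 32.4% and 42.2% of the 6501. The 7 were mes-2, mes-3, mes-6, mes-4, met-1, met-2 and set-32, with folds of 1.39 (mes-6) to 1.98 (mes-2). The median log2 fold change of the 10 was 0.72, and −0.54 over all tested genes and −0.07 over the 6501. Within replicates 1 and 2 the median of the 10 was 0.60 and 0.86. The calls rested on the scale here too. With library medians set equal 6 of the 10 were called higher in place of 0, and so were 23.3% of all tested genes, and with the median ratio to input set to 0 they were again 6, beside 20.4%. They were in both cases mes-2, mes-3, mes-4, met-1, met-2 and set-32, and hpl-2 changed sign under both settings, to 0.43 and 0.37. With 1 HRDE-1 or CSR-1 library left out fewer of the 10 rose, as did a smaller share of all tested genes. The median log2 fold change of the 10 was then between 0.62 and 0.81.

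The direct comparison of HRDE-1 with CSR-1, which does not use the input in its fold changes, separated all 10 genes. In it 1 was called higher and 6 lower, against 43.7% and 26.6% of all tested genes, and 34.6% and 37% of the 6501. Both HRDE-1 libraries stood above both CSR-1 libraries for 2 and below them for 8, beside 53.7% and 39.5% of all tested genes. At any fold 2 rose and 8 fell, against 50.8% and 36.3% of all tested genes, and 40.9% and 49.8% of the 6501. The gene called higher was hpl-1 (log2 fold change 3.299 ± 0.09 SE, adjusted p = 4.51e-05). Those called lower were met-1 (−1.71 ± 0.14, adjusted p = 0.000285), mes-3 (−1.62 ± 0.16, 0.000505), mes-2 (−1.52 ± 0.11, 0.000163), set-32 (−1.31 ± 0.11, 0.000262), mes-4 (−1.30 ± 0.09, 0.000176) and mes-6 (−1.22 ± 0.09, 0.000169). Just short of the size limit were set-25 (−0.99 ± 0.09, adjusted p = 0.000301) and met-2 (−0.91 ± 0.10, 0.000695), and hpl-2 rose by 0.54 ± 0.09 (adjusted p = 0.00270). The median of the 10 was −1.26, against 0.60 over all tested genes and −0.34 over the 6501. The counts of genes that rose and fell were 2 and 8 in every fit that left out a library. With the median ratio to input set to 0, hpl-2 missed the threshold, and the counts were 1 and 8.

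**Figure D3:**
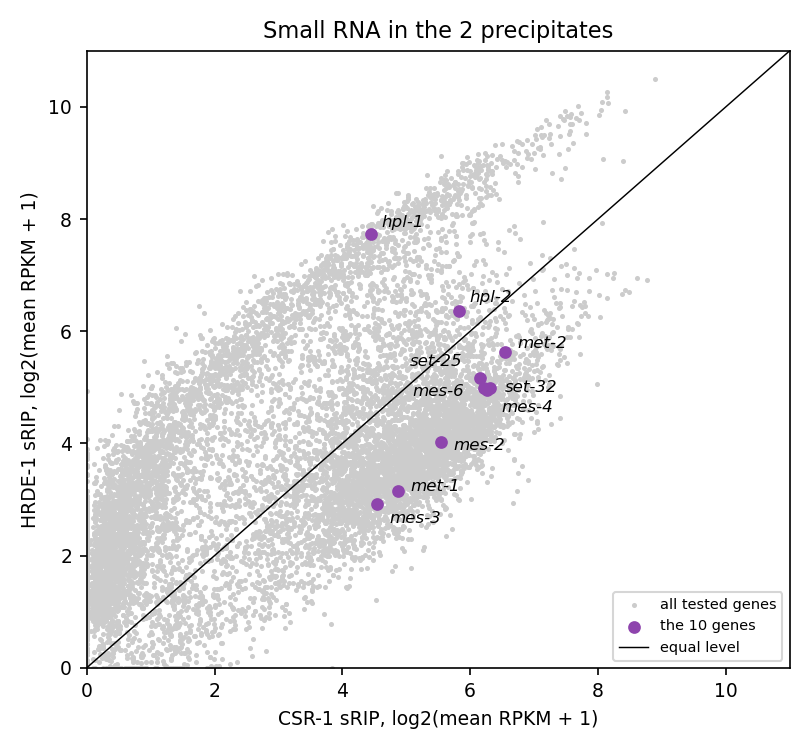
Mean small RNA level with HRDE-1 (vertical) against CSR-1 (horizontal), both as log2(mean RPKM + 1), for all 10908 tested genes (grey) and the 10 genes (purple). The line marks equal levels: hpl-1 and hpl-2 lie above it and the other 8 below it.

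The summed RPKM of the 10 genes was of similar size in each kind of library and was divided in different ways. It is not an amount of small RNA, because reads of short gene models weigh more in it. Their summed RPKM was 494.0 and 505.4 with HRDE-1, 541.7 and 583.3 with CSR-1, and 471.8 and 463.6 in the input. Of that sum hpl-1 made up 41.4% and 43.8% with HRDE-1, 3.82% and 3.56% with CSR-1, and 21.9% and 22.1% in the input. The 8 MES, MET and SET genes made up 42.5% and 39.6% with HRDE-1, 86.0% and 86.8% with CSR-1, and 65.0% and 66.6% in the input. The share of hpl-2 varied least, at 16.02% and 16.7% with HRDE-1, 10.2% and 9.65% with CSR-1, and 13.1% and 11.4% in the input. Counted in reads, the 10 genes had 4029 of 4872549 and 2635 of 3248065 with HRDE-1. They had 6922 of 4992358 and 4475 of 2991634 with CSR-1, and 2685 of 2728020 and 2064 of 2104162 in the input. Of these reads of the 10 genes, hpl-1 had 802 and 578 with HRDE-1, 83 and 50 with CSR-1, and 227 and 173 in the input.

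**Figure D4:**
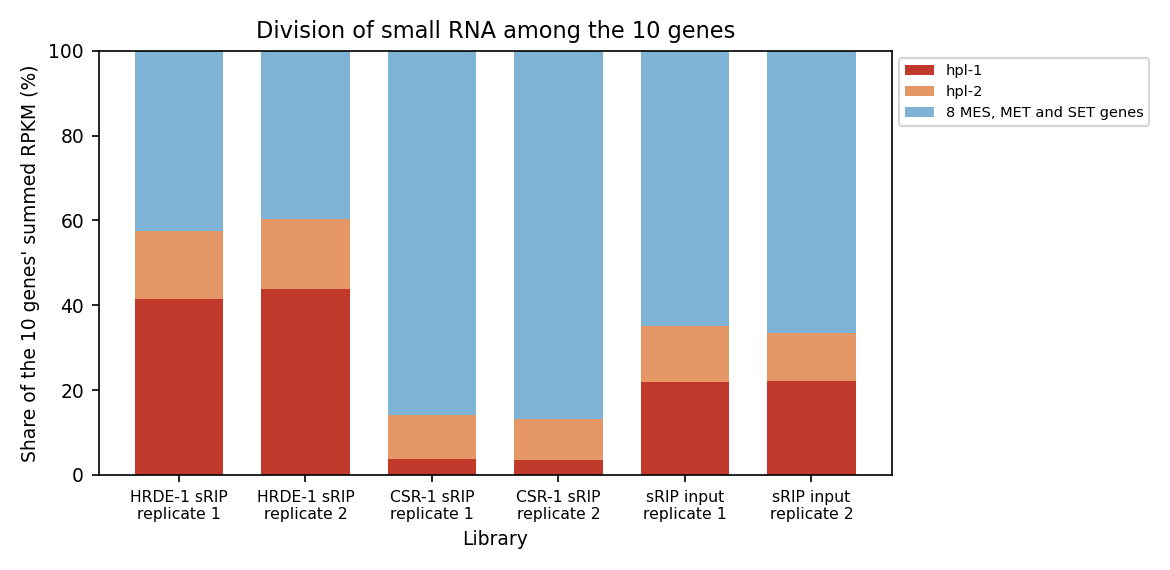
Share of the 10 genes' summed RPKM in each library (percent) held by hpl-1, by hpl-2 and by the 8 MES, MET and SET genes. The hpl-1 share is 41.4% and 43.8% with HRDE-1, 3.82% and 3.56% with CSR-1, and 21.9% and 22.1% in the input.

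The order of levels differed between the groups. Levels of different genes, and the shares and ratios above, rest on the authors' model lengths. As deduced from the values, these were 1224 bases for set-32 and 695 for hpl-2, below the longest annotated coding lengths of 1554 and 912, and 2020 for mes-6, above its longest transcript of 1676. With HRDE-1 it ran from hpl-1 at 213.0 ± 11.7 RPKM (SD, n = 2) through hpl-2, met-2, set-25, set-32, mes-6, mes-4, mes-2 and met-1 to mes-3 at 6.58 ± 0.966 RPKM. In that order the ranges of set-32 and mes-6, of mes-6 and mes-4, and of met-1 and mes-3 overlapped. With CSR-1 it ran from met-2 at 92.2 ± 8.16 RPKM through set-32, mes-4, mes-6, set-25, hpl-2, mes-2, met-1 and mes-3 to hpl-1 at 20.7 ± 0.0773 RPKM. Each neighbour from set-32 to set-25 overlapped the next, as did mes-3 and hpl-1. In the input the order was hpl-1 at 102.9 RPKM, set-25, hpl-2, met-2, mes-6, set-32, mes-4, mes-2, met-1 and mes-3 at 11.5 RPKM, and the neighbours from set-25 to set-32 overlapped. Among all tested genes, hpl-1 stood at percentile 96.2 of level with HRDE-1, 62.7 with CSR-1 and 93.2 in the input, and mes-3 at 34.3, 64.4 and 43.0.

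The genes are spread over the genome. In the WBcel235 annotation of Ensembl, mes-3 lies at I:4996835-5003202, met-1 at I:4254197-4264699 and set-32 at I:9519244-9521275, all on the plus strand. On the plus strand of other chromosomes are mes-2 (II:14383973-14388454), met-2 (III:8375300-8380848), mes-6 (IV:8511284-8513469) and hpl-1 (X:13245390-13247044). On the minus strand are set-25 (III:13283824-13293090), hpl-2 (III:10752195-10755530) and mes-4 (V:13433050-13437545). The build the authors used is not given in the sources used here, so these positions only place the genes. In this annotation mes-6 shares 380 exon bases with C09G4.4 on the same strand. On the opposite strand, set-25 shares 64 exon bases with unc-64 and 21 with the piRNA gene 21ur-12617. Small RNA in those bases may be counted for either gene of a pair. The part of these overlaps in the results was not tested. Of the 10, only hpl-1 is on the X chromosome. Of 1171 tested X genes, 17.2% were called higher and 3.76% lower in HRDE-1 against input, whereas of 9455 autosomal genes 5.94% were called higher and 11.1% lower. In CSR-1 against input, 8.88% of X genes were called higher and 43.7% lower, and of autosomal genes 6.85% higher and 35.8% lower. The part of the chromosome in the hpl-1 result was not tested.

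Nearness to the median profile of the 10 was taken as Euclidean distance over the log2(RPKM + 1) of the 6 libraries. The nearest other genes were C41G7.3 (current symbol mina-1, 0.140), unc-32 (0.160), arf-3 (current symbol arf-5, 0.185), aip-1 (0.193) and dao-5 (0.202). The first of these had 33.7 and 29.1 RPKM with HRDE-1, 59.4 and 63.3 RPKM with CSR-1, and 49.8 and 51.1 RPKM in the input. Of the 10 themselves, mes-6 was nearest to that profile, at 0.376, followed by mes-4 at 0.452, set-32 at 0.469 and set-25 at 0.514. The farthest were hpl-1, at 4.70, and mes-3, at 4.58, which differ from it in other ways: hpl-1 in direction and mes-3 in level.

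A list of 47 other chromatin genes gave the surroundings, of which 45 were tested. It held the DRM and synthetic multivulva B regulators, the lysine 4 methylation machinery, histone demethylases, readers of methylated histones, and other SET domain genes. In HRDE-1 against input 1 of 45 was called higher and 1 lower, beside 7.15% and 10.3% of all tested genes, with a median log2 fold change of −0.20. In CSR-1 against input 4 were called higher and 5 lower, beside 7.13% and 36.8% of all tested genes, with a median of 0.24. In HRDE-1 against CSR-1 9 were called higher and 15 lower, beside 43.7% and 26.6%, with a median of −0.62. The list includes set-9 and set-26, a pair of near-identical genes whose reads the counting may split.

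The 3 with the largest excess of HRDE-1 over CSR-1 small RNA were jmjd-3 genes, and all lie on the X chromosome. They encode relatives of UTX-1, the lysine 27 demethylase that removes the mark set by the MES complex. In the HRDE-1 libraries jmjd-3.1 had 251.1 and 290.7 RPKM, in the CSR-1 libraries 33.5 and 38.0 RPKM, and in the input 194.8 and 205.8 RPKM. HRDE-1 small RNA exceeded CSR-1 small RNA for jmjd-3.3 (log2 fold change 3.15 ± 0.08 SE, adjusted p = 4.51e-05), jmjd-3.2 (3.06 ± 0.11, 4.75e-05) and jmjd-3.1 (2.89 ± 0.13, 6.22e-05). With CSR-1 they fell against input, jmjd-3.3 at −2.47 ± 0.10 (adjusted p = 0.000296), jmjd-3.1 at −2.46 ± 0.16 (0.000452) and jmjd-3.2 at −2.42 ± 0.13 (0.000348). They belong to 1 gene family, and how reads matching several genes were counted is not given in the sources used here.

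Their relative utx-1, also on the X chromosome, went the other way. It had 2.20 and 1.57 RPKM with HRDE-1, 10.3 and 10.5 RPKM with CSR-1, and 3.56 and 3.28 RPKM in the input. It rose with CSR-1 against input (log2 fold change 1.37 ± 0.24 SE, adjusted p = 0.00702) and was lower with HRDE-1 than with CSR-1 (−1.99 ± 0.20, adjusted p = 0.000488). The gene with the largest difference on that side was jmjd-2, for a demethylase of lysines 9 and 36. The HRDE-1 libraries held 11.5 and 9.87 RPKM of it, the CSR-1 libraries 46.8 and 51.2 RPKM, and the input 24.1 and 23.7 RPKM. It was lower with HRDE-1 than with CSR-1 (−2.10 ± 0.12, adjusted p = 9.34e-05), as was set-16, the MLL-type lysine 4 methyltransferase gene (−1.75 ± 0.10, adjusted p = 9.60e-05). Against input, jmjd-2 fell with HRDE-1 (−1.095 ± 0.14, adjusted p = 0.00960).

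The other named calls against input rested on few input reads. For lsd-1, a lysine 4 demethylase gene, there were 7.43 and 6.15 RPKM with HRDE-1, 1.92 and 2.23 RPKM with CSR-1, and 1.83 and 2.77 RPKM in the input, and it was called higher with HRDE-1 (1.23 ± 0.24, adjusted p = 0.0178). The chromodomain gene cec-1 had 2.99 and 3.49 RPKM with HRDE-1, 12.8 and 9.75 RPKM with CSR-1, and 1.49 and 3.85 RPKM in the input, and was called higher with CSR-1 (1.73 ± 0.25, adjusted p = 0.00410). For set-12 the call in CSR-1 (1.36 ± 0.33, adjusted p = 0.0185) stood on 24 reads in the CSR-1 pair against 2 in the input pair, a ratio per library read of 7.26 with a counting interval of 1.80 to 63.4. The calls of lsd-1 and jmjd-2 in HRDE-1, and of cec-1, utx-1 and set-12 in CSR-1, were each lost in at least 1 fit that left out a library.

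**Figure D5:**
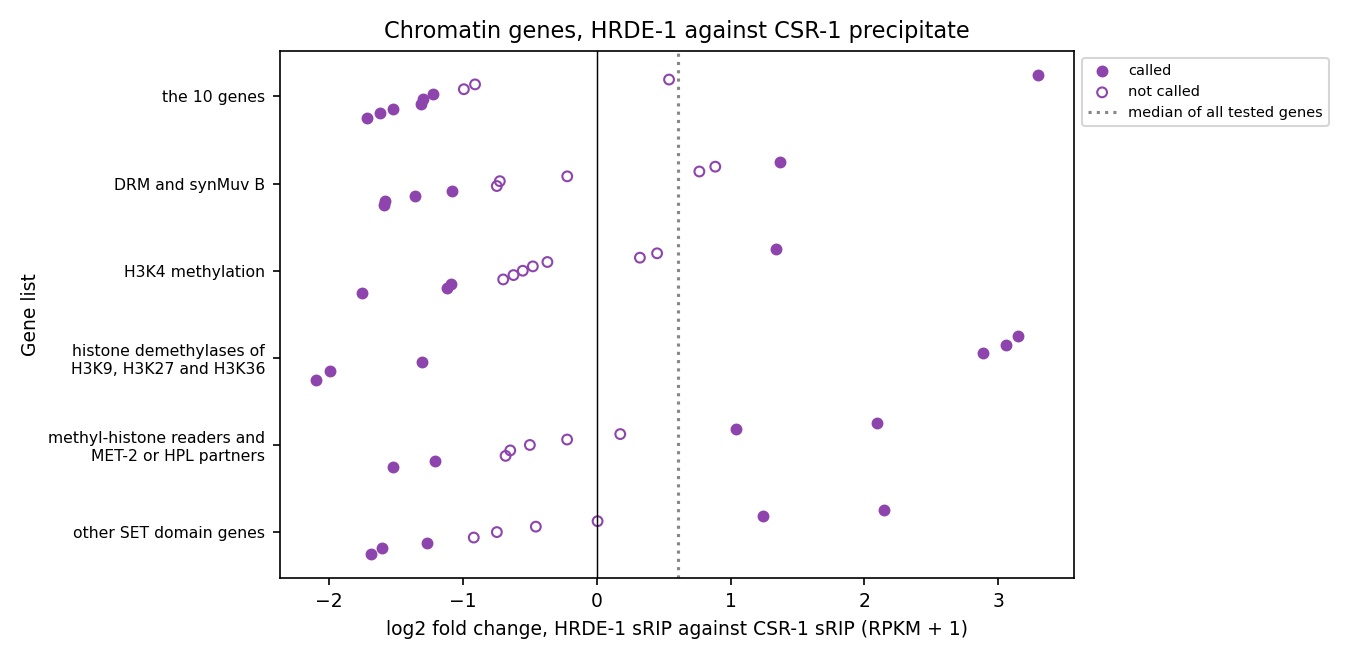
Log2 fold change on RPKM + 1, HRDE-1 against CSR-1, of the 10 genes (top) and the 5 groups of other chromatin genes. Filled points were called, open points were not, and the dotted line is the median of all tested genes, 0.60. Among the histone demethylases the points form 2 sets of 3, all called, with jmjd-3.1, jmjd-3.2 and jmjd-3.3 on the right.

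By group, 3 of 6 demethylases of lysines 9, 27 and 36 were called higher and 3 lower in HRDE-1 against CSR-1, where 43.7% and 26.6% of all tested genes were. Among the lysine 4 genes 1 of 11 was called higher and 3 lower, and among the DRM and synthetic multivulva B genes 1 of 10 was called higher and 4 lower. The readers had 2 of 9 called on each side, and the other SET domain genes 2 of 9 called higher and 3 lower.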

How the data were processed

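The deposited table gives RPKM per gene model, computed by the authors. Bowtie 1.2.3 is named in the submitters' processing notes. Not given in the sources used here: the genome build, the strand rule, the read lengths counted and the treatment of multiply matching reads. Per the labels' protocols, small RNAs were treated with phosphatase and polynucleotide kinase before ligation, so ligation did not need a 5′ monophosphate. In a second table, 45 value columns were not used, since their codes match no sample label.

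Library totals, model lengths and whole reads were deduced together from the RPKM steps. All 80624 values above 0 came out whole (tolerance 1e-06), which is partly by construction because 12611 lengths were deduced from the same values. The totals were 2104162 to 4992358 reads, and 40.1% to 52.4% of them fell on gene models. These reads served the counting intervals and the comparison of replicates, by which the input pair entered the test as 1 sample. The values tested were RPKM, not reads. With 1 model per gene, log2(RPKM + 1) was fitted with limma 3.58.1 (R 4.3.3, trended prior, 5 samples, 2 residual and 2.8 prior degrees of freedom, two-sided) over 10908 genes with Benjamini-Hochberg adjustment. The fit was tested on simulated data with a set spread and no shift of scale between libraries. That test therefore does not bear on the dependence on scale and spread reported here.

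All 10 genes are named. Of the other chromatin genes, those called were named, at most 3 per direction and comparison by size, with the 5 nearest genes by profile. The 10 genes and the lists were chosen with earlier results of these data known, and nothing was adjusted over a list alone. Alternatives tried were other pseudocounts, no filter, other scalings, 2 input samples, a replicate block and leaving out each library.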

Additional observations from a re-analysis of the deposited data

How the results depend on the processing

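Counts of calls over all genes rested on the scale. In HRDE-1 against input 780 genes were called higher and 1124 lower, and in CSR-1 against input 778 and 4019. With library medians set equal (all-gene medians 0.35 for HRDE-1 and −0.08 for CSR-1) these were 2254 and 333, and 2540 and 2969. With the median ratio to input set to 0, 2225 genes were called higher and 3531 lower in CSR-1, and with no filter 491 were called higher in HRDE-1. Of the 10 genes, 6 were called higher in CSR-1 with medians set equal and 6 with the median ratio set to 0, in place of 0. The 7 that fell with HRDE-1 at any fold became 2 with medians set equal and 3 with no filter. Of the genes tested in each fit 28.1% fell, which became 16.3% and 16.8%. The 2 that rose against CSR-1 became 1 with the median ratio set to 0, beside 50.8% and 47% of all tested genes. Of the other chromatin genes, 6 were called higher and 0 lower in HRDE-1 with medians set equal (27 had an unadjusted p under 0.05), and 14 and 3 in CSR-1, or 12 higher in CSR-1 with the median ratio set to 0. Values that changed sign were met-2 in HRDE-1 (0.24 with medians set equal) and hpl-2 in CSR-1 (0.43 with medians set equal, 0.37 with the median ratio set to 0, 0.082 without input replicate 1). Without input replicate 2 hpl-2 in CSR-1 kept its sign, at −0.14. Pseudocounts of 0.1 and 0.5 moved no count of the 10 genes by over 1.5 times. Relative to the all-gene median, which setting medians equal cannot change, the median of the 10 was −0.57 in HRDE-1, 1.27 in CSR-1 and −1.87 in HRDE-1 against CSR-1. With other pseudocounts, no filter or the median ratio set to 0 it ran between −0.60 and −0.56, 0.99 and 1.502, and −2.10 and −1.51.

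Leaving out 1 library gave 0 to 1045 genes called higher and 0 to 1256 lower in HRDE-1, 491 to 860 and 3183 to 4029 in CSR-1, and 4063 to 4767 and 2641 to 2901 in HRDE-1 against CSR-1. With 2 input samples these ranges were 673 to 908 and 895 to 1447, 725 to 924 and 3877 to 4032, and 4479 to 4713 and 2732 to 2994. The 0 counts came without either CSR-1 library, where 5512 and 5508 genes had an unadjusted p under 0.05; these libraries enter the HRDE-1 comparison only through the spread. Without HRDE-1 replicate 1 or 2, 92 and 101 genes were called higher and 97 and 67 lower. With or without 2 input samples, 0 to 1 of the 10 genes were called higher and 0 to 1 lower in HRDE-1, 0 to 1 higher and 1 lower in CSR-1, and 1 higher and 6 to 7 lower in HRDE-1 against CSR-1. At any fold the counts of the 10 varied in HRDE-1, and the count that rose in CSR-1, as did the shares of all tested genes. The median log2 fold change of the 10 ran from −0.65 to −0.55 in HRDE-1 and from 0.62 to 0.81 in CSR-1. Ranges of calls are to be read beside those over all genes. For the other chromatin genes they were 0 to 2 and 0 to 2 in HRDE-1, 1 to 5 and 4 to 6 in CSR-1, and 7 to 9 and 14 to 16 in HRDE-1 against CSR-1.

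Replicates with the same number did not deviate together (correlations 0.0333, 0.0233 and 0.00434 between the groups). A replicate block with 2 input samples gave 940 and 1159 genes in HRDE-1, 826 and 4068 in CSR-1, and 4767 and 2909 in HRDE-1 against CSR-1, and the counts of calls of the 10 genes stayed as reported. The cause of these shifts was not tested. The precision is limited by 2 libraries a group and by library totals of 2104162 to 4992358 reads.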
